A study of Oryza sativa with 8 samples.

Results

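Rewatered rice seedlings were compared with seedlings that had never been stressed, to ask what still differed after drought had ended. The comparison used 4 of the 8 RNA-seq samples of the series, the wild type samples labelled recovery (n = 2) and normal (n = 2), chosen by label. All 4 were whole seedlings of MH63, an indica rice variety, and their genotype label was MH63-WT. Normal plants were watered throughout and were harvested after 14 days of growth and a further 15 days. Recovery plants had their water withheld for those 15 days, with a relative soil water content near 5% at the end, and were harvested after 4 days of renewed watering. They were thus taken 33 days after planting, against 29 days for normal plants. Rewatering and these further 4 days of growth cannot be told apart, since a watered sample of the later day was not analysed here. The wild type drought samples (n = 2), taken with the normal plants, entered the fit to add to its estimate of the spread. The 2 drought samples of osbzip23 plants were left out, because a row does not stand for one gene in both genotypes. A replicate was made of at least 30 seedlings, and the treatment was run on separate batches of seedlings. The labels do not tie a replicate number to a batch, so p-values measure the spread between these samples.

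Drought raises abscisic acid in rice, which closes the stomata and switches on protective genes, while genes of photosynthesis and growth are turned down. Watering reverses much of this, and the speed of return differs between genes. RNA-seq counts are shares of a library, so a fold change between groups rests on a scaling factor that states how the libraries are to be set against each other. Each value below belongs to a row of the count table. The IDs in the table are paired with no gene name, and the gene measured in a wild type row may not be the one its ID denotes. The IDs thus serve as labels of rows only, no function is given to a row, and no pathway or marker list could be read. In whole seedlings, fewer cells of a type and less RNA per cell cannot be told apart.

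The 6 wild type libraries held 37400784 to 42894245 counts. Of 59903 rows, 30074 held a count in at least 1 of them, and 22898 passed the filter on low counts and were tested. Replicates correlated at r = 0.998 in each group across all 59903 rows, those without a count included. On the same rows, normal and recovery libraries correlated at r = 0.991 to 0.992. The spread between replicates exceeded that of counting alone. The chi-square between replicates, divided by its degrees of freedom, was 4.98 in normal, 4.55 in recovery and 7.36 in drought. Drought replicate 1 held no count after row 40897 of the table, where the normal libraries held 0.0555% and 0.0562% of their counts and the recovery libraries 0.077% and 0.0768%. Drought replicate 2 held 0.00349% there. Of the tested rows, 265 lay in that stretch and stayed in the fit.

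Recovery plants stood close to normal plants, but not as close as replicates stood to each other. The difference between libraries was measured first on shares of the library total, with no scaling factor beyond that total. It was taken as the percent of counts that would have to move to other rows to make both libraries alike. Between normal and recovery it was 13.4% to 14.0% over the 4 pairs of libraries. It was 2.40% between the normal replicates and 2.16% between the recovery replicates. Normal and drought differed by 36.5% to 36.8%, and drought and recovery by 42.2% to 42.5%. On this measure recovery lay farther from drought than normal did. With 2 libraries against 2, an exact permutation test of a single value cannot give a two-sided p below 0.333, so these values are set against the replicate pairs only.

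**Figure D1:**
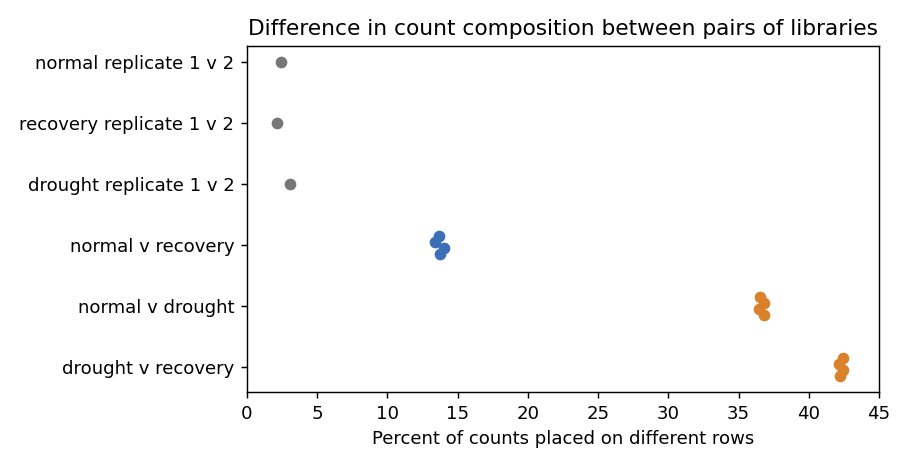
Percent of counts placed on different rows (x axis) for each pair of the 6 wild type libraries, grouped by the conditions compared (y axis), 1 point per pair. The 4 normal and recovery pairs lie between 13.4% and 14.0%, above the replicate pairs at 2.16% to 3.09% and below all pairs with drought.

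The excess over replicates was plainest in rows with many counts. Among the 9863 rows of 10 to 100 CPM (the count scaled to a library total of 1000000), the replicates differed by a median of 0.080 on the log2 scale in normal and 0.080 in recovery. The group means differed by a median of 0.214 after removal of the common shift. Among the 2064 rows of 100 to 1000 CPM, the replicates differed by 0.047 in normal and 0.042 in recovery, and the groups by 0.216. Among the 4077 rows under 1 CPM the replicates differed by 0.439 and 0.444 and the group means by 0.461. Means of a pair of libraries vary less than single libraries, so these medians are not on equal terms. Under TMM 304 of these rows (7.46%) were called, each at 2-fold or more, and smaller differences were not called at this depth.

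With TMM scaling, which sets the bulk of the rows to no net change, the remaining difference was nearly even in direction and mostly small in size. Of 22898 tested rows, 7968 (34.8%) were called between recovery and normal at an adjusted p under 0.05 (edgeR quasi-likelihood test, Benjamini-Hochberg adjustment, two-sided). In recovery, 4155 rows (18.1%) were higher and 3813 (16.7%) were lower, so 52.1% of the calls were higher. Over all tested rows the 25th and the 75th percentile of the log2 fold change were -0.27 and 0.33, and the 5th and the 95th were -0.96 and 1.17.

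Large differences leaned towards higher values in recovery. At 2-fold or more, 1594 rows (6.96%) were called, 1050 higher (4.59%) and 544 lower (2.38%). At 8-fold or more there were 143, 85 higher and 58 lower. When the test itself was set against a minimum fold change, edgeR called 4186 rows beyond 1.2-fold, of which 58.9% were higher. It called 1411 beyond 1.5-fold, of which 71.5% were higher, and 429 beyond 2-fold, of which 76.9% were higher. This lean depended on the scaling, as the next values show.

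The split between higher and lower rows turned with the scaling factor. Relative to plain library totals, TMM set recovery 0.19 higher against normal (log2), and all fold changes moved with it. Library size scaling reads each fold as a change in the share of counts. Under it 10002 rows were called, 2646 higher and 7356 lower, so 26.5% of the calls were higher, and the median log2 fold change of all tested rows was -0.19. At 2-fold or more, library size scaling gave 739 higher and 939 lower rows, the opposite order from TMM. Beyond 2-fold by the test against a minimum fold change, 59.2% of 341 rows were higher under library size scaling. Beyond 1.5-fold it was 42.1% of 1564 rows.

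The scalings that rest on the bulk of rows lay near each other. Median-of-ratios size factors gave 4399 higher and 3517 lower rows (55.6% higher), with a shift of 0.21 relative to library size. Upper-quartile scaling gave 3951 higher and 4122 lower rows (48.9% higher), with a shift of 0.17. TMM with singleton pairing gave 4095 and 3910 rows (51.2% higher), with a shift of 0.18. Library size counted without the 100 most abundant rows lay in between, with 3308 higher and 5334 lower rows (38.3% higher) and a shift of 0.098. Leaving these 100 rows out of the totals thus moved the groups by 0.098 of the 0.19 that separated TMM from library size.

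**Figure D2:**
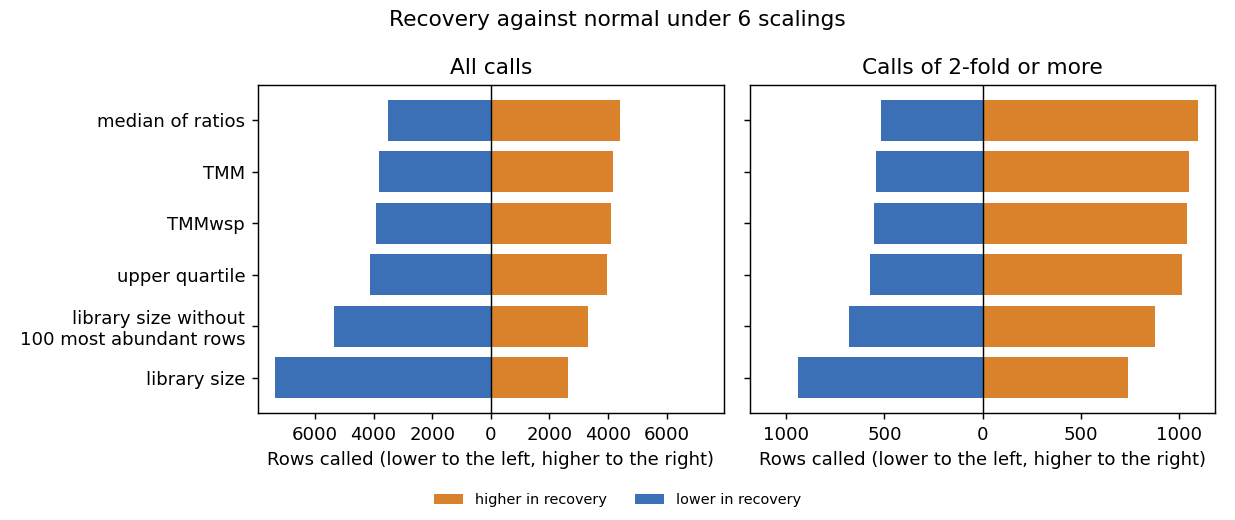
Number of rows called lower (left of 0) and higher (right of 0) in recovery than in normal under 6 scalings, ordered by the shift they put between the groups, for all calls and for calls of 2-fold or more. From median of ratios to library size, higher calls go from 4399 to 2646 and lower calls from 3517 to 7356.

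The scalings were also compared row by row. They differ by a nearly constant shift of at most 0.21 on the log2 scale, so a row could hardly be called in opposite directions, and 0 of 22898 rows were. The sign of the fold change differed between scalings in 4294 rows (18.8%). Under at least 1 of the 6 scalings 11755 rows were called, and 6163 rows (26.9% of tested rows) were called in the same direction under all 6. Of these, 2646 (11.6%) were higher in recovery and 3517 (15.4%) lower. These are the higher calls of library size and the lower calls of median of ratios, the scalings at either end of the shift. Higher rows were thus the smaller part of the calls shared by all scalings (42.9%), and the larger part of the TMM calls. The split of the shared calls follows from which scalings were compared, so it is no property of the rows alone.

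How many TMM calls were shared by every scaling followed from the size of that shift beside the size of the fold, so the next shares describe the shift and are no test of the rows. Of the TMM calls under a log2 fold change of 0.25, 41.3% were called the same way under all 6 scalings. This was 66.6% from 0.25 to 0.5, 89.8% from 0.5 to 1, 95.8% from 1 to 2, 97.2% from 2 to 3 and every one of the 143 rows above 3. In all, 1536 of the 1594 TMM calls of 2-fold or more (96.4%) were called under each scaling, 1000 higher and 536 lower. Rows at 2-fold or more under every scaling numbered 1255, with 739 higher and 516 lower. They are again the higher calls of library size and the lower calls of median of ratios, at 2-fold or more. Among these shared rows of large fold the higher ones were the larger part, while among all 2-fold calls under library size the lower ones were.

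The change in share differed between classes of abundance, while the choice of scaling moved the fold changes of all classes alike. The 81 rows with a mean of 1000 CPM or more over the 6 libraries took a larger share of the counts in recovery. They held 14.6% and 14.3% of the counts in the normal libraries, 13.1% and 13.5% in drought, with 19.8% and 19.6% in recovery. Recovery lay above all other libraries. The class was set on all 6 libraries, recovery included, so its shares are a description. In drought its 2 most abundant rows alone held 3.06% and 1.98% in replicate 1, and 3.20% and 2.13% in replicate 2. Neither held more than 0.00516% in any normal or recovery library. Under TMM 64 of the 81 rows were called higher and 7 lower, and under library size 52 and 15. Of the 81, 52 were higher and 6 lower under all 6 scalings, and 18 were higher by 2-fold or more under TMM, with 0 lower by as much. Their median log2 fold change was 0.50 with TMM and 0.31 with library size, beside 0 and -0.19 over all tested rows. When the class was set from the normal libraries alone, 52 of 79 rows were higher and 13 lower under TMM, and 41 and 25 under library size. Set from the drought libraries alone, 34 of 62 rows were higher and 17 lower under TMM, and 25 and 24 under library size.

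The classes below 1000 CPM carried the opposite change in share. Rows of 10 to 100 CPM went from 36.8% and 36.9% of the counts in normal to 33.3% and 33.5% in recovery. Rows of 100 to 1000 CPM went from 45.4% and 45.5% to 43.9% and 43.8%. In neither class did the groups overlap. Of the 9863 rows of 10 to 100 CPM, TMM called 2207 higher and 2281 lower, and library size 1314 and 4578. Of the 2064 rows of 100 to 1000 CPM, TMM called 687 higher and 623 lower, and library size 428 and 1157. Rows under 1 CPM had few calls under either, 161 higher and 143 lower with TMM and 133 and 234 with library size.

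**Figure D3:**
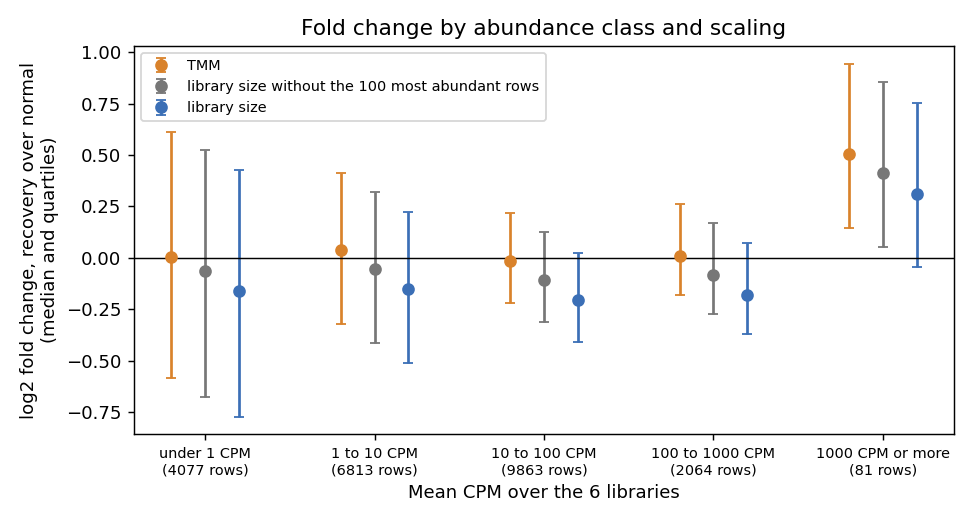
Log2 fold change of recovery over normal (y axis; points are medians, bars span the lower to the upper quartile over rows) in 5 classes of mean CPM over the 6 libraries (x axis), under 3 scalings. The 81 rows of 1000 CPM or more have a median above 0 under each, from 0.31 to 0.50, while the medians of the other classes lie near 0 with TMM and between -0.21 and -0.15 with library size.

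Gains in share were concentrated in few rows and losses were spread over many. Recovery gained 13.6 percentage points of the counts over 10508 rows and lost as many over 18317 rows. The 10 rows of largest gain took 3.04 points, or 22.4% of the gain, and the 100 rows of largest gain took 8.06 points, or 59.3%. The 10 rows of largest loss fell by 0.625 points, or 4.60% of the loss, and the 100 rows of largest loss fell by 2.28 points, or 16.8%. These rows were ranked on the same libraries, so the shares are a description. In the 100 most abundant rows over the 6 libraries, the share was 16.3% and 16.0% in normal, 14.9% and 15.3% in drought, and 21.7% and 21.5% in recovery. These 100 rows were ranked with recovery included, and their drought shares hold the rows of rank 1 and 2, abundant in drought only.

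**Figure D4:**
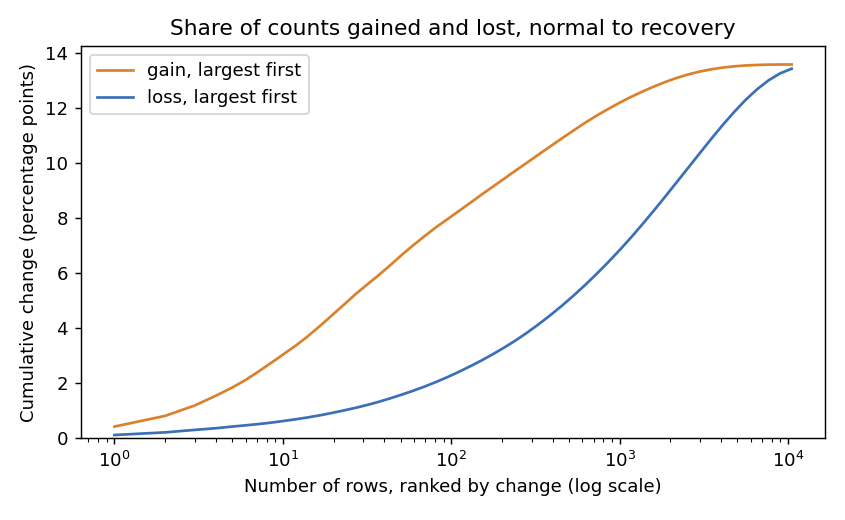
Cumulative percentage points of the counts gained (orange) and lost (blue) from normal to recovery (y axis) as rows are added from the largest change down (x axis, log scale). At 100 rows the gain has reached 8.06 points and the loss 2.28 points, out of 13.6 each.

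The leading rows were taken from those called the same way under every scaling, at 2-fold or more under TMM and with groups that did not overlap. Over all tested rows the normal and recovery CPM did not overlap in 72.6% (21.6% higher and 51.0% lower), so that last condition alone sets few rows apart. The rule was met by 993 higher and 533 lower rows, and the 10 of largest gain and loss of share were described in each direction. CPM here is scaled to library size only.

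The row of largest gain, OsMH_03G0250400, stood at 1738 and 1695 CPM in the normal libraries, 37.2 and 45.8 CPM in drought, and 6000.4 and 5934 CPM in recovery. Recovery was above both other groups in each library, and drought was the lowest. Its log2 fold change of recovery over normal was 1.99 ± 0.07 (SE; edgeR adjusted p = 9.47e-10) with TMM, and ran from 1.80 to 2.01 over the 6 scalings. The same fit gave -5.29 ± 0.08 for drought over normal (edgeR adjusted p = 2.66e-14), a comparison that shares the normal libraries and in which 72.7% of tested rows were called.

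The row OsMH_08G0098100 held 1047 and 1019.9 CPM in normal, 127 and 133 CPM in drought, and 4859.8 and 4776 CPM in recovery. It had the same order of groups, with no overlap between them. Its log2 fold change over normal was 2.41 ± 0.04 (SE, edgeR adjusted p = 3.43e-12), from 2.22 to 2.43 over the scalings. Drought over normal was -2.91 ± 0.04 (SE, edgeR adjusted p = 2.24e-14).

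The rows ranked 3 to 10 by gain had the same order. Their group means ran from 858 to 3669.6 CPM in normal, from 8.44 to 437.9 CPM in drought and from 2845 to 6627 CPM in recovery. The largest ratio of recovery to drought was at rank 3, with 8.56 and 8.32 CPM in drought, 1307 and 1358 CPM in normal and 4792 and 4958 CPM in recovery. Its log2 fold change of recovery over normal was 2.06 ± 0.04 (SE, edgeR adjusted p = 4.78e-12). The most abundant was rank 4, at 3714 and 3626 CPM in normal and 6723 and 6531 CPM in recovery, with a log2 fold change of 1.04 ± 0.04 that became 0.85 with library size. The 10 rows together gained 2.72 percentage points of the counts.

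The row of largest loss, OsMH_07G0101700, stood at 1134 and 1187 CPM in normal, 0.528 and 0.699 CPM in drought, and 260.3 and 268 CPM in recovery. Recovery lay between the other groups, above drought and below normal in every library. Its log2 fold change over normal was -1.95 ± 0.05 (SE, edgeR adjusted p = 5.12e-11), from -2.14 to -1.92 over the scalings. Its value over drought was 8.85 ± 0.09 (SE, edgeR adjusted p = 9e-16), in a comparison that shares the recovery libraries and in which 75.5% of tested rows were called.

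The row OsMH_03G0007900 held 674 and 666 CPM in normal, 1003 and 1041 CPM in drought, and 283.6 and 284.4 CPM in recovery. It was highest in drought and lowest in recovery, with no overlap. Its log2 fold change over normal was -1.05 ± 0.04 (SE, edgeR adjusted p = 3.52e-09), from -1.24 to -1.03 over the scalings. Drought over normal was 0.69 ± 0.04 (SE, edgeR adjusted p = 8.55e-09).

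The rows ranked 3 to 10 by loss were mixed in their drought level. Rank 9 had the steepest fall among the 10, from 241 and 249 CPM in normal to 33.3 and 32.8 CPM in recovery, with 12.3 and 11.9 CPM in drought. Its log2 fold change over normal was -2.70 ± 0.06 (SE, edgeR adjusted p = 1.37e-11). Rank 5 held 470 and 457 CPM in normal, 171 and 159 CPM in drought, and 180.1 and 178 CPM in recovery, so that recovery lay just above drought. Rank 7 held 409 and 442 CPM in normal, 321 and 313 CPM in drought and 178 and 188 CPM in recovery, below drought. Rank 6 was the least even between replicates, at 122 and 79.6 CPM in recovery, 328 and 365 CPM in normal and 527 and 436 CPM in drought (log2 fold change over normal -1.59 ± 0.15). Together the 10 rows fell by 0.335 percentage points of the counts, against the 2.72 gained by the 10 higher rows.

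**Figure D5:**
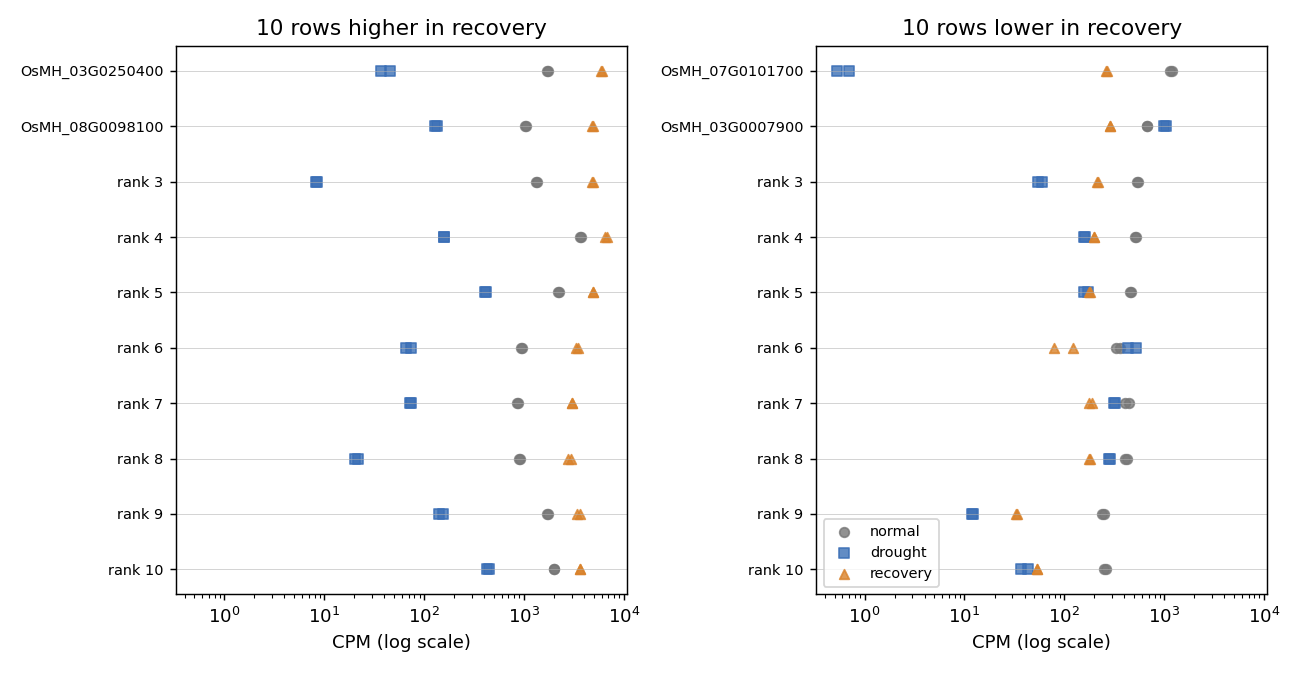
CPM on a log scale (x axis) in the normal, drought and recovery libraries, 1 marker per library, for the 10 rows of largest gain (left) and of largest loss (right) in share of counts from normal to recovery, by rank (y axis). On the left the recovery markers lie to the right of normal and the drought markers far to the left. On the right the recovery markers lie left of normal, and drought lies on either side of them.

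Among the 10 most abundant rows over the 6 libraries, 7 were higher and 1 lower in recovery than in normal under every scaling, and the calls of 2 depended on it. Over all tested rows, 11.6% were higher and 15.4% lower under every scaling. The ranking used all 6 libraries, recovery included, and ranks 1 and 2 were listed through drought alone. Rank 1 held 3.06% and 3.20% of the counts in drought, 0.00444% and 0.0043% in normal, and 0.00516% and 0.00469% in recovery. Rank 2 held 1.98% and 2.13% in drought and at most 0.000696% in the other libraries. Both are among the 7 higher rows. The row of rank 5 held 0.591% and 0.615% of the counts in normal and 0.623% and 0.644% in recovery. It was higher with TMM, by a log2 fold change of 0.26 ± 0.03 (SE, edgeR adjusted p = 7.82e-05), and not called with library size, at 0.07 (edgeR adjusted p = 0.113). The row of rank 7 held 0.528% and 0.511% in normal and 0.428% and 0.418% in recovery. It was lower with library size, at -0.30 (edgeR adjusted p = 7.14e-05), and not called with TMM, at -0.11 ± 0.04 (SE, edgeR adjusted p = 0.0791). In both rows the normal and recovery libraries did not overlap in share. The row of rank 4 kept its call, going from 0.571% and 0.561% in normal to 0.95% and 0.959% in recovery (log2 fold change 0.94 ± 0.03 with TMM and 0.75 with library size).

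Taken as sets, the rows called at 2-fold under TMM and in the same direction under all scalings were followed through the 3 conditions. The 1000 higher rows held 4.43% ± 0.052 of the counts in normal, 6.78% ± 0.23 in drought and 10.8% ± 0.097 in recovery (SD, n = 2 each). Their drought share included a single row, the second most abundant over the 6 libraries, which took 1.98% and 2.13% of all counts in the drought libraries. That row took 0.000133% and 9.36e-05% in normal and 0.000696% and 0.00045% in recovery. The median row of the set stood at 3.48 CPM in normal, 2.15 CPM in drought and 8.93 CPM in recovery. The set's median log2 fold change was 1.45 for recovery over normal, -0.67 for drought over normal and 2.28 for recovery over drought.

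The 536 lower rows held 1.25% ± 0.0076 of the counts in normal, 1.25% ± 0.0039 in drought and 0.421% ± 0.0031 in recovery (SD, n = 2 each). Their median row stood at 3.28, 1.87 and 1.04 CPM. Their median log2 fold changes were -1.43 for recovery over normal, -0.64 for drought over normal and -0.98 for recovery over drought. Over all 22898 tested rows the same medians were 0, -0.0035 and -0.0092. Both sets were chosen on recovery against normal and the comparisons share libraries, so these values describe the rows and are no test.

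For a large part of the rows the data place recovery within a narrow range of normal, which a missing call alone does not show. With TMM, the 95% interval of the fold change lay wholly within 1.5-fold of normal in 9944 rows (43.4%), and 2722 of these were also called different from normal. It lay wholly within 2-fold in 14964 rows (65.4%), and wholly beyond 2-fold in 693 rows (3.03%). These intervals were taken row by row without adjustment over rows, whereas the adjusted test against a minimum of 2-fold called 429 rows. With library size scaling, 8964 rows (39.1%) lay within 1.5-fold, and 7610 rows (33.2%) did so under all 6 scalings. The share rose with abundance, from 0 of 4077 rows under 1 CPM and 19.5% of rows of 1 to 10 CPM to 70.7% at 10 to 100 CPM and 77.8% at 100 to 1000 CPM under TMM. In the 81 rows of 1000 CPM or more it was 50.6%, although their intervals were the narrowest (median half-width 0.090 on the log2 scale, against 1.43 under 1 CPM).

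Few rows were detected in one group alone, a measure that needs no scaling factor. With at least 10 counts in each library of one group and 0 counts in both libraries of the other, 16 rows were found in recovery alone and 15 in normal alone. Of these, 3 and 2 lay in the stretch where drought replicate 1 held no counts. The strongest row held 534 and 582 counts in recovery and 0 counts in all normal and drought libraries. At 14.45 ± 0.60 CPM (SD, n = 2) it was at least 379.7-fold higher than normal, against a floor of 3 counts over the normal group (edgeR adjusted p = 1.82e-08). The strongest row in the other direction held 51 and 56 counts in normal, 1578 and 1863 counts in drought and 0 in both recovery libraries, at least 34.9-fold lower in recovery than in normal (edgeR adjusted p = 3.63e-06). At 100 counts or more in each library, 2 rows remained in recovery alone and 0 in normal alone. Floors cover counting error only.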

How the data were processed

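RNA-seq counts per gene row were used as the authors deposited them, whole numbers without normalization. The tools listed in the submitters' processing notes, with no role, are STAR 2.7.10a, StringTie 2.1.7 and fastp 0.23.0. The genome build, the annotation, strandedness and the handling of multi-mapping reads are not given in the sources used here, so rows of paralogs or overlapping genes are uncertain. The 6 wild type columns entered 1 fit with 3 residual degrees of freedom in edgeR 4.0.16 (R 4.3.3), with TMM, the filterByExpr filter and a two-sided quasi-likelihood test; p-values were adjusted over 22898 rows. Intervals are the fold change ± the t quantile times its SE. That SE was derived from the test, as the absolute log2 fold change divided by the square root of the quasi-likelihood F value. With TMM, 73 rows with a log2 fold change of 0 had no interval and stayed in the totals. The test was also run on simulated counts with the same dispersion for every row, unlike these data. Its outcome is not given here and lends no support to the calls. Shares, CPM and figures were made with Python 3.11.15, pandas 2.3.3 and Matplotlib 3.10.9. CPM is the count scaled to the library total.

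Other settings were 5 scalings, other filters and tools (DESeq2 1.42.0, limma 3.58.1), fits of fewer libraries and the replicate number as a block. The rows and lists were chosen with earlier results of these data known. Printed IDs are the 2 rows of largest gain and the 2 of largest loss of share among rows called the same way under all 6 scalings, at 2-fold or more and with groups that did not overlap; ranks 3 to 10 and the 10 most abundant rows are given without an ID.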

Additional observations from a re-analysis of the deposited data

How the results depend on the processing

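Each of the 20 rows of largest gain or loss kept its direction and its call under all 18 other settings (360 values). The rows were chosen as called the same way under all 6 scalings, so the other 5 scalings could give nothing else. They were also chosen at 2-fold or more, with groups that did not overlap and for the largest change in share. The remaining settings could thus hardly reverse them, and the 360 values lend the rows no support. Of the 10 most abundant rows, the calls of 2 depended on the scaling. Library size scaling moved the higher calls to 2646 and the lower calls to 7356. A minimum fold change of 1.2, 1.5 or 2 gave 4186, 1411 or 429 calls with TMM, and 5471, 1564 or 341 with library size (the latter chosen after seeing the data). The median log2 fold change of all tested rows was 0 with TMM, 0.020 with median of ratios, -0.19 with library size, -0.017 with the upper quartile, -0.089 without the 100 most abundant rows, -0.0048 with at least 50 counts in 2 libraries, 0.018 with DESeq2, 0.0057 with limma-voom and -0.0053 in the fit of the 4 libraries compared. DESeq2 called 6671 rows, 3704 higher and 2967 lower. The fit of the 4 libraries compared, without drought, called 8910 of 21960 tested rows, 4578 higher and 4332 lower, against 7968 in the main fit. Leaving out each library in turn gave 5726 to 8586 calls, 2984 to 4398 higher and 2696 to 4188 lower, 1355 to 1633 at 2-fold or more, and medians of -0.011 to 0.0064. Rows up to the last count of drought replicate 1, a setting chosen after seeing the data, gave 7926 calls. With the replicate number as a block there were 7424 calls, 3889 higher and 3535 lower. The differences between replicates were hardly correlated between groups (r = 0.015 between normal and recovery, -0.013 between normal and drought, -0.023 between recovery and drought, across 22898 rows). Every row weighs alike in r, and rows of few counts spread most between replicates. These values thus cannot decide whether the numbers pair the samples. Depth limits the rows under 1 CPM, of which 7.46% were called with TMM.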
